A study of Mus musculus with 25 samples.

Results

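Of 54532 genes in a deposited expression table of mouse cortex, 6 protein-coding genes are described here: Kirrel2, Rpe65, Trank1, Qtrt1, Dimt1 and Ddb2. They were picked by name because their levels were lower in 5xFAD mice than in wild-type mice when both received vehicle. That contrast therefore chose them, and its values are given below without a test. Among the 16450 genes with enough reads to be tested, 45 were called lower in it (0.274%), the 6 genes among them. The question asked of the other mice was whether the lower levels recur in 5xFAD cortex under treatment and against a second wild-type group.

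The study measured poly(A) RNA in the cortex of 25 mice, 5 in each of 5 groups. There were 5xFAD mice given vehicle (AD_Veh), 5xFAD mice given a low dose of P (AD_LowP) and 5xFAD mice given a high dose of P (AD_HighP), with wild-type mice given vehicle (WT_Veh) and wild-type mice given a high dose of P (WT_HighP). P stands in the labels for a derivative of a natural product. Its identity, the doses, the duration of treatment and the age of the mice were not given in the sources used here. The 5xFAD line carries human transgenes with familial Alzheimer's disease mutations, driven by Thy1 sequences and so expressed mainly in neurons. No wild-type group received the low dose.

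Each library had between 15518358 and 17698222 reads assigned to genes. Thy1, whose sequences drive the transgenes, averaged 458 ± 78.0 FPKM in AD_Veh, 483 ± 123 FPKM in AD_LowP and 462 ± 38.6 FPKM in AD_HighP, against 155 ± 15.6 FPKM in WT_Veh and 185 ± 7.48 FPKM in WT_HighP (SD, n = 5 each), and every 5xFAD group lay above both wild-type groups, as their labels say. FPKM are fragments per kilobase of gene, scaled to the size of the library. By Xist and Ddx3y, each group held 3 males and 2 females. Microglial markers (12 genes, all tested) summed to 530 to 754 FPKM in AD_Veh, 450 to 660 FPKM in AD_LowP and 453 to 646 FPKM in AD_HighP, against 164 to 243 FPKM in WT_Veh and 184 to 265 FPKM in WT_HighP. Markers of inhibitory neurons (10 genes, all tested) tended the other way. Their sums were 385 to 505, 353 to 479 and 396 to 473 FPKM in those 5xFAD groups, against 495 to 568 FPKM in WT_Veh and 485 to 641 FPKM in WT_HighP. AD_Veh overlapped both wild-type groups. Excitatory neuron markers (12 genes, all tested) summed to 1051 to 2053, 1033 to 1859 and 1736 to 1990 FPKM in those 5xFAD groups. In WT_Veh they summed to 1266 to 1917 FPKM and in WT_HighP to 1523 to 2085 FPKM, with overlap. Astrocyte markers (10 genes, all tested) summed to 795 to 1077 FPKM in AD_Veh, 770 to 883 FPKM in AD_LowP and 689 to 888 FPKM in AD_HighP, against 508 to 607 FPKM in WT_Veh and 513 to 576 FPKM in WT_HighP, without overlap. In bulk tissue, fewer cells of a type and less RNA per cell cannot be told apart, and the part of any of these shifts in the results below was not tested. In 5 libraries Ttr, a choroid plexus gene, stood at 58.2 to 820 FPKM, against at most 23.7 FPKM in the other 20. They were replicates 1 and 4 of AD_HighP, replicate 1 of WT_Veh and replicates 1 and 2 of WT_HighP.

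The 6 genes belong to unrelated pathways. Kirrel2 is an immunoglobulin-superfamily adhesion protein of the nephrin family, and Rpe65 is the isomerohydrolase that regenerates the visual chromophore in retinal pigment epithelium. Trank1 is a large protein with tetratricopeptide and ankyrin repeats whose human locus is known from association studies of bipolar disorder. Qtrt1 is the catalytic subunit of the enzyme that puts queuine into the wobble position of certain transfer RNAs, Dimt1 dimethylates adenosines of the small ribosomal subunit RNA, and Ddb2 recognises ultraviolet damage in DNA for nucleotide excision repair.

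Kirrel2 was lower again, and Rpe65 had folds of similar size that did not pass the test, while for the other 4 genes no test passed. The mice that did not choose the genes allow 3 comparisons with WT_HighP: AD_HighP at the matched dose, AD_LowP at another dose, and both P-treated 5xFAD groups together (10 mice against 5). These comparisons share the same 5 WT_HighP mice. The spread in the test came from all 25 libraries, and so from AD_Veh and WT_Veh too. That spread was therefore not independent of the choice of genes. A gene was called when its Benjamini-Hochberg adjusted p, over all 16450 genes in limma's moderated test on log2(FPKM + 0.5), was under 0.05. By this rule 1 of the 6 genes, Kirrel2, was called lower in AD_HighP, where 0.255% of all genes were called lower. The same gene, 1 of the 6, was called lower in AD_LowP (1.33% of all genes) and with the 2 groups pooled (0.973% of all genes). The fold change was below 0 for 5 of the 6 genes in AD_HighP, 6 of 6 in AD_LowP and 6 of 6 pooled, where 50.4%, 52.9% and 51.7% of all genes were below 0. At an unadjusted p under 0.05, 1, 4 and 4 of the 6 genes were lower, against 4.43%, 10.6% and 8.75% of all genes. The median log2 fold change of the 6 genes was −0.19 in AD_HighP, −0.34 in AD_LowP and −0.24 pooled.

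**Figure D1:**
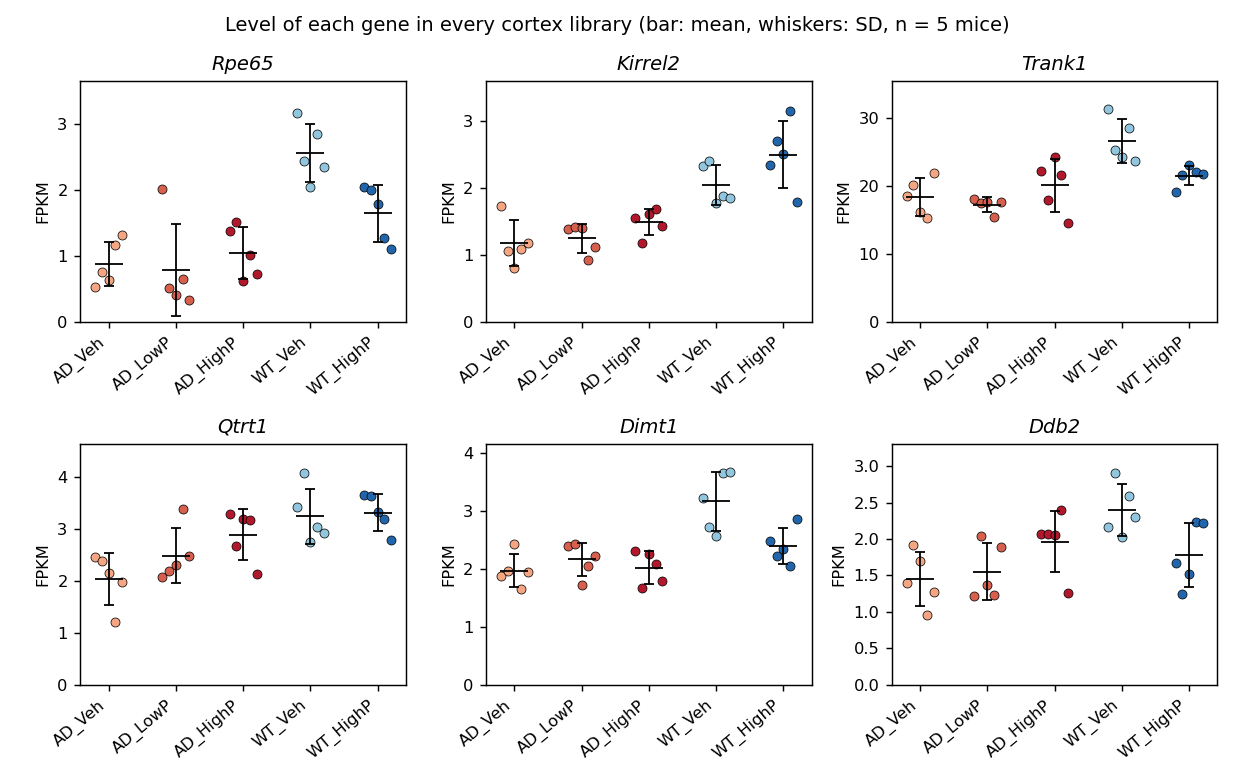
FPKM of the 6 genes in each of the 25 libraries, 1 panel per gene, with groups on the horizontal axis, points for mice and bars for mean ± SD (n = 5 each). For Kirrel2 the 10 libraries of AD_LowP and AD_HighP lie below the 5 of WT_HighP, while for Ddb2 the AD_HighP and WT_HighP points overlap.

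Kirrel2 (ENSMUSG00000036915) lies on the minus strand of chromosome 7 at chr7:30447534-30457690 (mm10) and had 52 to 211 reads per library. Its product joins cells at the slit diaphragm of kidney podocytes and takes part in the sorting of olfactory axons in the mouse. A window of 300 bases around its start, taken from RefSeq (GRCm38.p6, chr7:30457466-30457765, minus strand), is shown because this is the gene whose call recurred. Capitals mark GGGCGG, the core of the GC box, the one motif of those searched that it holds.
Kirrel2: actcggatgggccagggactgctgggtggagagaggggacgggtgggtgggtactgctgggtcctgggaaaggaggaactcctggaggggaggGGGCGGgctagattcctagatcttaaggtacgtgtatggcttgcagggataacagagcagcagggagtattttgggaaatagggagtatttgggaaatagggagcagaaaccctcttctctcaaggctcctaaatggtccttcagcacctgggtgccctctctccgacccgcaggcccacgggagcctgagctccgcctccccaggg

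Kirrel2 stood at 1.74, 1.06, 0.807, 1.09 and 1.18 FPKM in the AD_Veh mice, against 2.33, 2.40, 1.77, 1.88 and 1.85 FPKM in the WT_Veh mice that chose it. It stood at 1.39, 1.42, 1.39, 0.927 and 1.11 FPKM in AD_LowP and at 1.55, 1.18, 1.61, 1.68 and 1.43 FPKM in AD_HighP. The WT_HighP mice had 2.34, 2.70, 2.50, 3.15 and 1.78 FPKM. No P-treated 5xFAD mouse reached the lowest WT_HighP mouse, so all 10 lay below all 5. The groups averaged 1.49 ± 0.193 FPKM in AD_HighP and 2.49 ± 0.50 FPKM in WT_HighP (SD, n = 5 each). The log2 fold change was −0.58 (SE 0.138, 95% interval −0.86 to −0.29, adjusted p = 0.0235). For AD_LowP, at 1.25 ± 0.219 FPKM (SD, n = 5), it was −0.77 against WT_HighP (SE 0.138, 95% interval −1.05 to −0.48, adjusted p = 0.00117). Pooled, Kirrel2 stood at 0.627 times its WT_HighP level on the log2(FPKM + 0.5) scale (log2 −0.67, SE 0.119, adjusted p = 0.000838). Of the 6 genes, 1 had groups without overlap in AD_HighP (2.55% of all genes were lower without overlap), 2 in AD_LowP (1.86%; Trank1 was the other) and 1 pooled (0.559%).

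The matched-dose call was the less steady one. It was lost without the 5 libraries with high Ttr (−0.62, adjusted p = 0.303), after a correction for GC content (−0.51, adjusted p = 0.0980) and in males or females alone (−0.64, adjusted p = 0.161, and −0.49, adjusted p = 0.526). It was also lost on leaving out replicate 2 or 5 of AD_HighP (adjusted p = 0.0966 and 0.0601) or replicate 2, 3 or 4 of WT_HighP (0.0680, 0.0605 and 0.0860), at fold changes between −0.57 and −0.50. The pooled call held without the high-Ttr libraries (−0.69, adjusted p = 0.0390) and in males alone (−0.65, adjusted p = 0.0328), and was lost in females alone (−0.71, adjusted p = 0.304), where 4 mice stand against 2. With only the compared groups in the limma fit, the mice that chose the genes took no part. Kirrel2 then had an adjusted p of 0.0321 in AD_HighP, 0.0222 in AD_LowP and 0.0025 pooled. Over the whole series, Kirrel2 and Zfp365 (2 genes, 0.0122%) lay lower in every 5xFAD library than in every wild-type library. This is a description, since 10 of those 25 libraries are the AD_Veh and WT_Veh mice that chose Kirrel2. For Kirrel2 the gap was narrow, with the highest 5xFAD library at 1.74 FPKM and the lowest wild-type library at 1.77 FPKM.

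Rpe65 (ENSMUSG00000028174), on the plus strand at chr3:159599175-159625321 (mm10), was the faintest of the 6, with 11 to 102 reads per library. Its RefSeq window (GRCm38.p6, chr3:159598931-159599230, plus strand) is shown for contrast with that of Kirrel2, because Rpe65 had the lowest fold change of the 6 in the contrast that chose them. Capitals mark CCAAT, the CCAAT box.
Rpe65: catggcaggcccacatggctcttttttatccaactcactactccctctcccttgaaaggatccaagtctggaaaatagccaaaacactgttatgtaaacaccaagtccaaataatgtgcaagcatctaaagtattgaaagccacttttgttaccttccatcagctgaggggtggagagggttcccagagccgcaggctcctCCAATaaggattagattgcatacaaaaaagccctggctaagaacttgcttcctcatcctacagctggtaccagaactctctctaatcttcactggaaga

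Rpe65 stood at 0.532, 0.749, 0.632, 1.16 and 1.31 FPKM in AD_Veh, against 3.17, 2.43, 2.04, 2.84 and 2.35 FPKM in WT_Veh. The AD_LowP mice had 2.02, 0.519, 0.405, 0.649 and 0.332 FPKM and the AD_HighP mice 1.38, 1.51, 0.617, 1.02 and 0.720 FPKM. The WT_HighP mice had 2.05, 2.00, 1.78, 1.28 and 1.11 FPKM. In AD_LowP 4 of 5 mice lay below every WT_HighP mouse, and the fifth, replicate 1 at 2.02 FPKM, lay near the top of that group. In AD_HighP 3 of 5 lay below every WT_HighP mouse. The log2 fold change against WT_HighP was −0.85 in AD_LowP (SE 0.243, 95% interval −1.35 to −0.34), just outside the threshold at an adjusted p of 0.0509. It was −0.48 in AD_HighP (SE 0.243, 95% interval −0.98 to 0.02, adjusted p = 0.513) and −0.66 pooled (SE 0.211, adjusted p = 0.0861). Without replicate 1 of AD_LowP, the values were −1.12 for AD_LowP (adjusted p = 0.00121) and −0.80 pooled (adjusted p = 0.00467). Leaving out replicate 5 of WT_HighP also brought the AD_LowP value past the threshold (−0.94, adjusted p = 0.0429), whereas without the high-Ttr libraries it was −0.67 (adjusted p = 0.358). With only the compared groups in the limma fit, the adjusted p was 0.182 for AD_LowP and 0.155 pooled.

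Rpe65 is known from the eye, so markers of retina and pigment epithelium were read beside it. Of 12 such markers 2 were abundant enough to test, and Rgr, Tyr, Tyrp1, Mlana, Crx and Rbp3 were at 0 in most libraries. Their summed level was 5.13 to 6.86 FPKM in AD_Veh, 4.31 to 6.14 FPKM in AD_LowP and 6.20 to 8.05 FPKM in AD_HighP, against 5.07 to 6.50 FPKM in WT_Veh and 5.24 to 7.50 FPKM in WT_HighP. These ranges overlap between 5xFAD and wild-type groups. Most of each sum was 1 marker, Rlbp1, at a mean of 5.07 FPKM in AD_Veh and 4.74 FPKM in WT_Veh. The sum therefore says little about the other markers. Lrat, which makes the retinyl esters that Rpe65 uses, averaged 0.0133 FPKM in AD_HighP and 0.0176 FPKM in WT_HighP, too low to test. Rlbp1 itself, a carrier of retinoids in the visual cycle, is not separate from that sum. It averaged 4.28 ± 0.621 FPKM in AD_LowP and 5.78 ± 0.667 FPKM in AD_HighP, against 5.20 ± 0.861 FPKM in WT_HighP (SD, n = 5 each). It was not called (pooled log2 fold change −0.05).

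Trank1 (ENSMUSG00000062296; plus strand, chr9:111311739-111395775, mm10) was the most abundant of the 6 per kilobase, with 3123 to 6859 reads per library. It stood at 18.5, 20.1, 16.1, 15.2 and 21.8 FPKM in AD_Veh, against 31.4, 25.3, 24.3, 28.6 and 23.6 FPKM in WT_Veh. The other 5xFAD mice had 18.1, 17.5, 17.6, 15.4 and 17.6 FPKM in AD_LowP and 22.2, 17.9, 24.3, 21.5 and 14.5 FPKM in AD_HighP, against 19.2, 21.5, 23.0, 22.1 and 21.7 FPKM in WT_HighP. All AD_LowP mice lay below all WT_HighP mice, while the AD_HighP mice lay on both sides of them. The AD_LowP difference of −0.31 (SE 0.117, 95% interval −0.55 to −0.07) had an adjusted p of 0.136, and the AD_HighP difference was −0.12 (95% interval −0.36 to 0.12, adjusted p = 0.791). The WT_HighP mice themselves all lay below all WT_Veh mice, at 21.5 ± 1.43 FPKM against 26.6 ± 3.26 FPKM (SD, n = 5 each; log2 −0.30).

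Qtrt1 (ENSMUSG00000002825; plus strand, chr9:21411837-21420274, mm10) works as a dimer with Qtrt2. Its levels ran from 1.2 to 2.45 FPKM in AD_Veh, 2.07 to 3.38 FPKM in AD_LowP and 2.12 to 3.28 FPKM in AD_HighP, against 2.75 to 4.07 FPKM in WT_Veh and 2.77 to 3.64 FPKM in WT_HighP. In AD_LowP 4 of 5 mice lay below every WT_HighP mouse, and the fifth, at 3.38 FPKM, lay among them. The differences from WT_HighP were −0.36 in AD_LowP (95% interval −0.66 to −0.07, adjusted p = 0.158) and −0.18 in AD_HighP (95% interval −0.48 to 0.12, adjusted p = 0.739). Qtrt2 averaged 1.98 ± 0.305 FPKM in AD_LowP and 2.20 ± 0.236 FPKM in AD_HighP, against 2.22 ± 0.322 FPKM in WT_HighP (SD, n = 5 each), and was not called.

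Dimt1 (ENSMUSG00000021692; plus strand, chr13:106947127-106960224, mm10) ran from 1.64 to 2.43 FPKM in AD_Veh, 1.72 to 2.42 FPKM in AD_LowP and 1.66 to 2.31 FPKM in AD_HighP. It ran from 2.57 to 3.67 FPKM in WT_Veh and from 2.05 to 2.86 FPKM in WT_HighP. The 3 5xFAD groups lay close together, below WT_Veh without overlap, and overlapped WT_HighP. The differences from WT_HighP were −0.12 in AD_LowP (95% interval −0.35 to 0.11, adjusted p = 0.571) and −0.20 in AD_HighP (95% interval −0.43 to 0.03, adjusted p = 0.584).

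Ddb2 (ENSMUSG00000002109; minus strand, chr2:91211572-91236982, mm10) forms the damage-recognition complex with Ddb1. It ran from 0.959 to 1.92 FPKM in AD_Veh, 1.21 to 2.04 FPKM in AD_LowP and 1.25 to 2.39 FPKM in AD_HighP, against 2.03 to 2.91 FPKM in WT_Veh and 1.24 to 2.23 FPKM in WT_HighP. Every 5xFAD group overlapped WT_HighP. AD_HighP averaged 1.97 ± 0.424 FPKM and WT_HighP 1.78 ± 0.437 FPKM (SD, n = 5 each), a difference of 0.12 (95% interval −0.22 to 0.45, adjusted p = 0.865), and the pooled difference was −0.02 (95% interval −0.31 to 0.27). The direction in AD_HighP turned with the mice used, at 0.38 in males, −0.28 in females and −0.13 without the high-Ttr libraries, none called. Dimt1 overlaps Kif2a and Ddb2 overlaps Acp2 on the opposite strand, at means of 13.8 and 13.5 FPKM. The libraries were strand-specific, but whether the counting used strand was not given in the sources used here, so the levels of these 2 genes are uncertain.

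**Figure D2:**
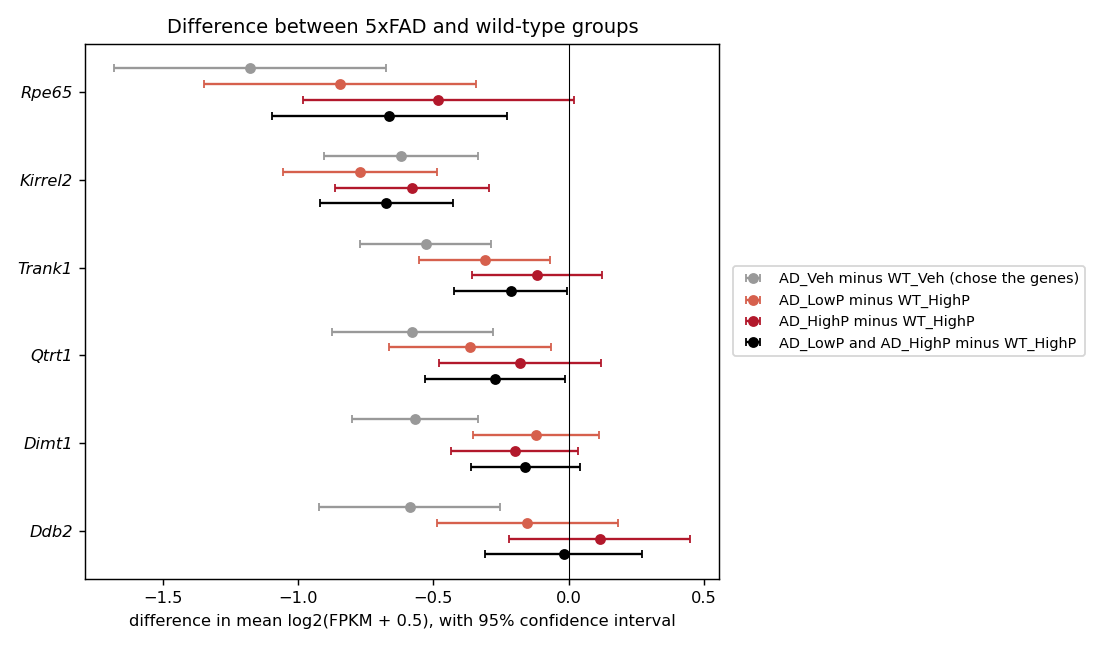
Log2 fold change of each gene, on the log2(FPKM + 0.5) scale with its 95% interval, in the contrast that chose the genes and in the comparisons with WT_HighP. In the comparisons with WT_HighP, the intervals of Kirrel2 lie below 0 and those of Ddb2 cover 0. The contrast that chose the genes is drawn as a description.

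The choosing contrast and those that reuse its mice are given as descriptions. AD_Veh minus WT_Veh was −1.18 for Rpe65 (SE 0.243), −0.62 for Kirrel2 (SE 0.138), −0.59 for Ddb2 (SE 0.162), −0.58 for Qtrt1 (SE 0.145), −0.57 for Dimt1 (SE 0.113) and −0.53 for Trank1 (SE 0.117). No gene's groups overlapped, and 0.821% of all genes were lower without overlap, from which nothing is read because this contrast chose the 6. Against the same WT_Veh mice, AD_LowP lay lower without overlap for Rpe65, Kirrel2, Trank1 and Dimt1 (4 of 6, with 0.76% of all genes), at −1.38, −0.54, −0.61 and −0.46. AD_HighP did so for Rpe65, Kirrel2 and Dimt1 (3 of 6, with 2.69% of all genes), at −1.01, −0.35 and −0.54. AD_Veh lay below WT_HighP without overlap for Kirrel2 and Qtrt1 (2 of 6, with 4.6% of all genes), at −0.84 and −0.61. The other genes overlapped. AD_Veh minus WT_HighP was −0.23 for Trank1, Dimt1 and Ddb2 alike, and −0.65 for Rpe65 (−1.11 in males, 0.04 in females). Against WT_Veh, AD_LowP stood at −0.33 for Qtrt1 and −0.51 for Ddb2. AD_HighP stood at −0.41 for Trank1, −0.15 for Qtrt1 and −0.25 for Ddb2.

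WT_Veh was the highest of the 5 groups for Rpe65, Trank1, Dimt1 and Ddb2, and WT_HighP the highest for Kirrel2 and Qtrt1. WT_HighP minus WT_Veh was −0.53 for Rpe65, −0.36 for Ddb2, −0.34 for Dimt1 and −0.30 for Trank1, but 0.03 for Qtrt1 and 0.23 for Kirrel2. With GC corrected, Dimt1 stood at −0.01, and Qtrt1 at −0.24 and Kirrel2 at −0.02, where the sign turned. Beside these differences, the slope on GC content was 0.173 ± 0.0496 log2 units per 10 points in WT_HighP and −0.150 ± 0.148 in WT_Veh (SD, n = 5 each). The share of mitochondrial reads was 3.96% to 4.71% in WT_HighP and 5.89% to 6.64% in WT_Veh, without overlap, and its part was not tested. The groups did not overlap for Trank1 (1 of 6, with 4.69% of all genes lower without overlap). Since WT_Veh was one of the groups that chose the genes, a high level there is part of the choice and these differences carry no test.

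The 2 doses of P were compared within 5xFAD mice. AD_HighP minus AD_LowP was 0.36 for Rpe65 (95% interval −0.14 to 0.87), 0.27 for Ddb2 (−0.07 to 0.60), 0.19 for Kirrel2 (−0.09 to 0.48), 0.19 for Trank1 (−0.05 to 0.43), 0.18 for Qtrt1 (−0.11 to 0.48) and −0.08 for Dimt1 (−0.31 to 0.15). In limma 0 of the 6 was called lower (0% of all genes were) and 0 had an unadjusted p under 0.05 (6.19% of all genes had). Over all genes 0 were called in limma and in voom alike, with 1019 and 1072 at an unadjusted p under 0.05. The intervals leave differences of about these bounds possible in either direction. Against AD_Veh, which helped to choose the genes, AD_LowP stood at −0.20 to 0.25 and AD_HighP at 0.03 to 0.43 over the 6 genes. Below 0 were 2 of the 6 in AD_LowP and 0 of the 6 in AD_HighP. None lay lower without overlap in either (0.267% and 0.699% of all genes did). The choice favours low levels in AD_Veh, so nothing is read from these counts.

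The 45 genes called lower in AD_Veh give the 6 a setting. By fold change, Rpe65 ranked 6th from the lowest, Kirrel2 16th, and Ddb2, Qtrt1, Dimt1 and Trank1 20th to 23rd. Of the other 39, 1 was called lower again in AD_HighP against WT_HighP, 3 in AD_LowP and 1 pooled. Over all tested genes 0.255%, 1.33% and 0.973% were called lower. Zfp365, a zinc finger gene, was called in all 3 comparisons, and Crls1, the cardiolipin synthase, and Gm12168 in AD_LowP. The median log2 fold change of these 39 was −0.12, −0.16 and −0.11 in the 3 comparisons, against −0.50 in the contrast that chose them. Zfp365 stood at 97.7 to 120 FPKM in the 10 P-treated 5xFAD mice, against 132 to 148 FPKM in WT_HighP (log2 −0.38, adjusted p = 3.27e-05).

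**Figure D3:**
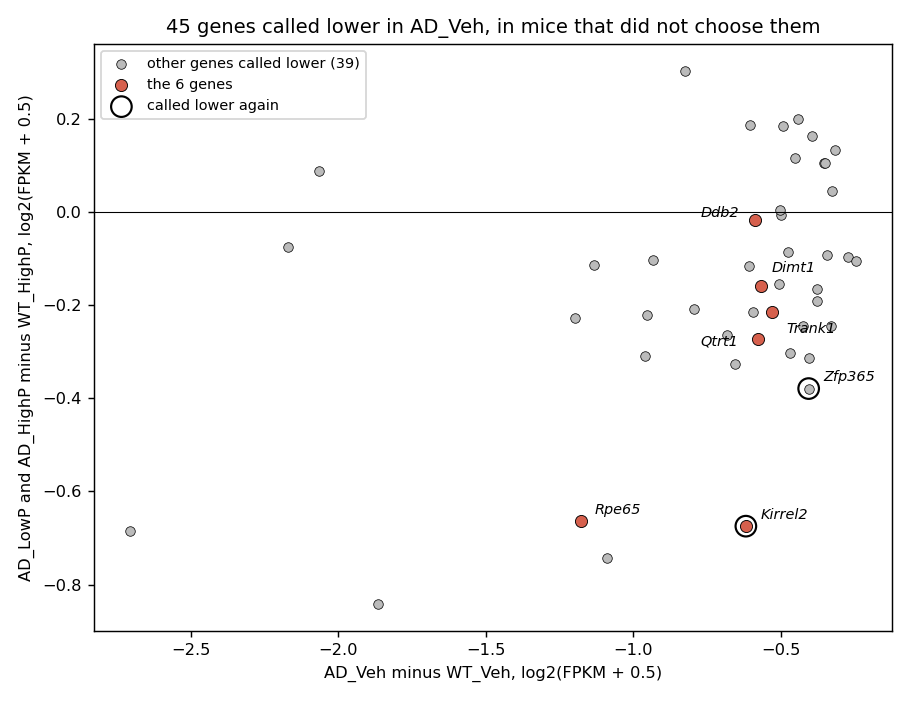
The 45 genes called lower in AD_Veh, with AD_Veh minus WT_Veh on the horizontal axis and the pooled P-treated 5xFAD minus WT_HighP on the vertical axis, both on the log2(FPKM + 0.5) scale. The 6 genes are red, and rings mark Kirrel2 and Zfp365, the genes called lower on the vertical axis.

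Few genes of the pathways around 5 of the 6 genes were called, as was so over all tested genes, and Trank1 had no list. Over 6 lists of pathway genes, without the 6 themselves, 221 genes were tested. Of these 0 were called lower and 0 higher in AD_HighP against WT_HighP by limma (23 had an unadjusted p under 0.05), 1 lower and 4 higher in AD_LowP (51), and 1 lower and 2 higher pooled (41). Over all tested genes 0.255%, 1.33% and 0.973% were called lower and 1.5%, 2.53% and 2.43% higher. An unadjusted p under 0.05 in either direction was held by 10.3%, 20.4% and 17.3%. The median log2 fold change of the 221 was 0.01, −0.01 and −0.01, beside −0.0017, −0.017 and −0.0097 over all tested genes. The lists differed in their medians, most in AD_LowP, from −0.20 for the retinoid cycle to 0.10 for small ribosomal subunit assembly. Among 14 genes of nephrin and Kirrel adhesion and 44 of nucleotide excision repair, none was called in these 3 comparisons, with 0 and 5 at an unadjusted p under 0.05 pooled. Kirrel3, a nephrin-family relative of Kirrel2, averaged 8.37 ± 3.05 FPKM in AD_LowP and 7.72 ± 0.859 FPKM in AD_HighP, against 8.54 ± 1.96 FPKM in WT_HighP (SD, n = 5 each). Ddb1, the partner of Ddb2, averaged 64.9 ± 4.80 FPKM in AD_LowP and 59.7 ± 2.65 FPKM in AD_HighP, against 61.3 ± 1.60 FPKM in WT_HighP. Of 10 partner genes picked by role, 8 were tested and 0 were called by limma in the 3 comparisons. Lrat and Nphs1, the nephrin gene, were too low to test. Nphs1 averaged 0.106 ± 0.0429 FPKM in AD_Veh, 0.116 ± 0.0787 FPKM in AD_LowP and 0.161 ± 0.0959 FPKM in AD_HighP. It averaged 0.208 ± 0.137 FPKM in WT_Veh and 0.247 ± 0.0888 FPKM in WT_HighP (SD, n = 5 each). At an unadjusted p under 0.05 were Cdkn1a in AD_HighP and pooled, and Rlbp1 in AD_LowP.

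Of 23 retinoid-cycle genes, 18 had a fold change below 0 in AD_LowP and 17 pooled (medians −0.20 and −0.12), and none of these was called. Over all tested genes 52.9% and 51.7% were below 0. In AD_Veh minus WT_Veh, the contrast that chose Rpe65, 6 of the 23 were below 0 (median 0.07). The 1 gene of the list called in the comparisons with WT_HighP was Rdh11, a retinol dehydrogenase, with a fold change above 0. It was higher in AD_LowP, at 10.7 ± 1.07 FPKM against 7.82 ± 0.499 FPKM in WT_HighP (SD, n = 5 each; log2 0.42, adjusted p = 0.00861), and pooled (log2 0.33, adjusted p = 0.0183). Of 51 genes of transfer RNA modification, 1 was called, Nsun2, a cytosine methyltransferase, higher in AD_LowP (log2 0.26, adjusted p = 0.0403). Of 59 genes of small ribosomal subunit assembly, AD_LowP had Emg1, a methyltransferase of ribosomal RNA, lower (log2 −0.36, adjusted p = 0.0286) and the nucleolar genes Nop58 (log2 0.41, adjusted p = 0.0319; pooled log2 0.34, adjusted p = 0.0426) and Ncl (log2 0.38, adjusted p = 0.0476) higher. Of 34 p53 target genes, Ddit4, an inhibitor of mTOR signalling, was called lower pooled, at 14.5 ± 6.49 FPKM in AD_LowP and 14.3 ± 1.23 FPKM in AD_HighP, against 21.6 ± 1.69 FPKM in WT_HighP (SD, n = 5 each; pooled log2 −0.62, adjusted p = 0.0328).

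Neighbouring genes were read beside each gene. Some lay far away, up to 1523 kb from Rpe65, 1499 kb from Dimt1 and 832 kb from Trank1. The nearest to Rpe65 was 108 kb away. Such distant genes say little about whether a locus shifted. Of the 34 nearest tested neighbours, up to 3 on each side by start position, 0 were called lower by limma and 1 higher in AD_HighP against WT_HighP (5 at an unadjusted p under 0.05), 1 lower and 1 higher in AD_LowP (7), and 0 lower and 1 higher pooled (6). Over all tested genes 0.255%, 1.33% and 0.973% were called lower and 1.5%, 2.53% and 2.43% higher. At an unadjusted p under 0.05 were 10.3%, 20.4% and 17.3%. Around Qtrt1, Slc44a2, a choline transporter, was the neighbour called higher (pooled log2 0.31). Tmed1, a cargo receptor of the early secretory pathway, was called lower there in AD_LowP (log2 −0.59, adjusted p = 0.0359). Around Kirrel2, Aplp1, an App-family gene 2.00 kb away, stood at −0.31 pooled (adjusted p = 0.153) and Arhgap33 stood at −0.56 (adjusted p = 0.0762).

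**Figure D4:**
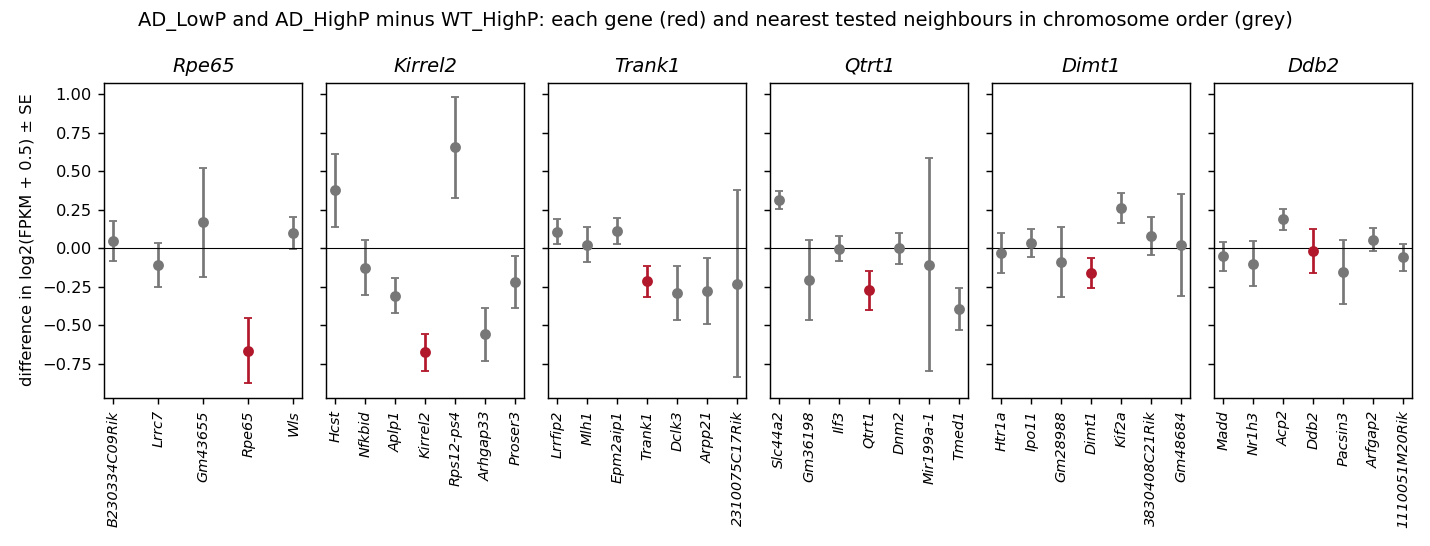
Pooled P-treated 5xFAD minus WT_HighP, as log2 fold change with its SE, for each of the 6 genes (red) and its nearest tested neighbours in chromosome order (grey). Kirrel2 and, among its neighbours, Arhgap33 lie lowest at their locus, while Qtrt1 has a neighbour above 0, Slc44a2.

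Within groups, correlations between the 6 genes were of both signs, with no spread over other gene pairs set beside them. After group means were subtracted, Pearson's r between pairs of them over the 25 libraries ran from −0.36 (Rpe65 and Ddb2) to 0.39 (Trank1 and Qtrt1), values that share libraries and their composition and are given as a description. By the same measure, the highest of 11860 protein-coding genes was picked for each. These were Spag5 (r = 0.678) for Kirrel2, Nup35 (0.709) for Rpe65, Ccnl2 (0.731) for Trank1, Tmem234 (0.857) for Qtrt1, Nupl2 (0.700) for Dimt1 and Spop (0.745) for Ddb2. Some also went with the slope of a library on GC content, with r of 0.60 for Qtrt1, 0.77 for Tmem234 and −0.71 for Nup35. Transcript GC content was 56.1% for Kirrel2, 56.9% for Qtrt1, 51.3% for Trank1, 45.1% for Ddb2, 42.2% for Rpe65 and 38.0% for Dimt1, around a median of 49.7% over the tested genes. Libraries also differed in how strongly levels depended on GC content, with slopes of 0.0641 ± 0.0994 log2 units per 10 points in AD_HighP and −0.0443 ± 0.222 in AD_LowP, against 0.173 ± 0.0496 in WT_HighP (SD, n = 5 each). With GC corrected, the pooled values were −0.55 for Kirrel2 (adjusted p = 0.0145), −0.78 for Rpe65 (0.0292), −0.31 for Dimt1, −0.21 for Trank1, −0.13 for Qtrt1 and −0.09 for Ddb2.

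RefSeq held a start-site window for 5 of the 6 genes. Its GC content ran from 45.3% in Rpe65 to 71.7% in Trank1, with 56.3% in Qtrt1, 59.7% in Kirrel2 and 63.0% in Dimt1. CpG pairs numbered 1 in Rpe65, 8 in Kirrel2, 17 in Qtrt1, 22 in Dimt1 and 40 in Trank1. The motifs searched on both strands were GGGCGG as the GC box, CCAAT as the CCAAT box, TATAAA as the TATA box, CACGTG as the E-box, TGACGTCA as the cAMP response element, CCGGAAG as an ETS site, GATGGCGGC as a YY1 site, and the NRF1 palindrome. None of them contains another. GGGCGG occurred in Kirrel2, Trank1 and Dimt1 and in 35.7% of all 32851 windows. CCAAT occurred in Rpe65 and Trank1 and in 37.4% of windows, and CACGTG, the E-box, in Qtrt1 alone of the 5, at 2 places, and in 7.15% of windows. The other 5 motifs, held by 0.971% to 13.6% of windows, occurred in none, and no motif was common to all 5.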

How the data were processed

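Expression was measured in the cortex of 25 mice, grouped by the labels. Each library is 1 mouse, per the design text. Libraries were strand-specific and poly(A)-selected, per the labels' protocols, and were aligned to mm10 with HISAT2, per the submitters' processing notes. Nothing in the sources used here names the counter or the annotation. The authors deposited FPKM values for 54532 genes, with gene lengths. FPKM times length gave whole read multiples for 100% of values (tolerance 0.01 reads). Depths were recovered from this, taking the smallest non-zero value of each library as 1 read. Duplicates cannot be seen, so the number of independent reads behind a low value is not known.

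Testing was limited to the 16450 genes that reached 0.5 FPKM in 5 or more libraries, all 6 described genes included. A mean per group was fitted over all 25 libraries to log2(FPKM + 0.5) with limma 3.58.1 (R 4.3.3) with a mean-variance trend, and p-values were adjusted by Benjamini-Hochberg. A fold change on this scale understates the change of low genes. The procedure was run on simulated reads with changes placed in AD_HighP alone and read only against WT_HighP. That run did not cover the AD_LowP or pooled comparisons, GC content or high Ttr. Alternatives were other pseudocounts and filters, TPM scaling, array weights, sex, a replicate block, GC correction, voom on recovered reads, and libraries left out. The 6 genes and all lists were chosen with earlier results of these data known. Beyond the 6, genes were named by a rule: fixed partners, called list genes (up to 4 per list), nearest neighbours, closest correlates, and Thy1 as genotype check. Crls1, Gm12168 and Zfp365 were named after their values were seen. Coordinates are the files' own, in mm10.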

Additional observations from a re-analysis of the deposited data

Results flagged for a closer look

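Rpe65 in AD_LowP had 1 library far from the others, replicate 1 at 2.02 FPKM, where the other 4 lay between 0.332 and 0.649 FPKM. Its gap to the nearest library exceeded Dixon's critical value of 0.71 of the group's range. Trank1 in AD_LowP was marked in the same way at its low end, with replicate 4 at 15.4 FPKM and the others between 17.5 and 18.1 FPKM. Over 30 groups of libraries examined (6 genes in 5 groups), chance marks about 1 in 20.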

How the results depend on the processing

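In the 3 comparisons with WT_HighP, Kirrel2 stayed below 0 in all alternative settings tried. It was called in 14 of 24 of them for AD_HighP, 23 of 24 for AD_LowP and 28 of 29 pooled (adjusted p from 0.00405 to 0.526, 0.000418 to 0.252 and 0.000278 to 0.304). Rpe65 was called in 9 of 24 for AD_LowP and 4 of 29 pooled, Qtrt1 in males alone for AD_LowP (log2 −0.59, adjusted p = 0.0102), and Trank1, Dimt1 and Ddb2 in none. The cause of each shift below was not tested. The 5 high-Ttr libraries include 2 of the 5 WT_HighP mice and 2 of the 5 AD_HighP mice, and the sexes leave 3 or 2 mice a group. Those fits therefore rest on fewer mice. The part of this in their counts, which moved both ways in males alone, was not tested.

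The count of genes called lower in AD_HighP (42 as reported) was 371 with array weights, 172 with the 2 groups alone, 21 in males, 3 in females, 2 without high-Ttr libraries, and 16 to 49 with single mice left out. In AD_LowP (219) it was 109 with no filter, 100 with array weights, 48 with the 2 groups alone, 1443 in males, 1 in females, 111 with GC correction, 29 without high-Ttr libraries and 77 to 546 with single mice left out. Pooled (160) it was 102, 441, 342, 2 and 14 with no filter, array weights, males, females and no high-Ttr libraries, and 60 to 299 with single mice left out. Between doses (0) it was 95 in males and 0 to 1 with single mice left out.

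Of the 6 genes, the number called lower in AD_HighP (1) was 0 with no filter (Kirrel2 adjusted p = 0.0523), in males, in females, with GC correction and without high-Ttr libraries, and 0 to 1 with single mice left out. In AD_LowP (1) it was 2 with a pseudocount of 0.1, a filter of 1 FPKM, TPM scaling, array weights, males, GC correction, voom or the replicate block, 0 in females, and 1 to 2 with single mice left out, the second gene being Rpe65 except in males (Qtrt1). Pooled (1) it was 2 with array weights, GC correction or voom, 0 in females, and 1 to 2 with single mice left out.

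No pairing by replicate number was seen, which does not exclude one. Replicates 1 to 3 were male and 4 and 5 female in every group, so the number goes with sex. Libraries with the same number had a mean correlation of −0.00897 over 50 pairs, of which 11 exceeded 0.1. Those with other numbers had a mean of 0.00262 over 200 pairs, of which 49 exceeded 0.1. With the replicate block the genes called lower numbered 38, 166 and 127 in AD_HighP, AD_LowP and pooled, and 0 between doses. Kirrel2 had an adjusted p of 0.0330, 0.00227 and 0.00168, and Rpe65 in AD_LowP passed at 0.0463. Depth limits Rpe65 most, at 11 to 102 reads.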

Other observations

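By sex, Kirrel2 averaged 1.40 FPKM in AD_LowP males and 1.02 FPKM in AD_LowP females, against 2.51 FPKM in WT_HighP males and 2.47 FPKM in WT_HighP females (3 males and 2 females in each group). Qtrt1 averaged 2.18 FPKM in AD_LowP males and 2.93 FPKM in AD_LowP females, against 3.53 FPKM in WT_HighP males and 2.98 FPKM in WT_HighP females. Ddb2 averaged 2.06 FPKM in AD_HighP males and 1.82 FPKM in AD_HighP females, against 1.48 FPKM in WT_HighP males and 2.23 FPKM in WT_HighP females. Whether these differences between sexes exceed chance was not tested.

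Cdkn1a, a cell cycle inhibitor and p53 target, averaged 3.43 ± 0.864 FPKM in AD_LowP and 2.66 ± 0.276 FPKM in AD_HighP, against 3.78 ± 0.776 FPKM in WT_HighP (SD, n = 5 each). It was not called (AD_HighP log2 −0.42, adjusted p = 0.142).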
